A study of Mus musculus with 8 samples.

Results

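Enzymes of the methionine cycle and of transsulfuration were examined in CT26 cells, a mouse colon carcinoma line, that carried a Tead1/4 knockout (KO, 4 libraries) or were unedited (WT, 4 libraries). Both genotypes were grown in serum-containing RPMI medium, and mRNA was sequenced. The TEAD proteins bind DNA together with YAP and TAZ, and the series asks how the transcript profile of the knockout differs from that of unedited cells. How the knockout was made, and whether it is a single clone or a pool, is not given in the labels. The genes were taken by symbol: Cth, Cbs, Mat2a, Mat2b, Ahcy, Mtr, Mtrr and Cdo1. All 8 were found among the 26642 rows of the count table, and 7 of the 8 passed the filter on low counts, all but Cbs.

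The methionine cycle turns methionine into S-adenosylmethionine (SAM), the methyl donor of most methyltransferases, and then into S-adenosylhomocysteine and homocysteine. Homocysteine is either methylated back to methionine, with folate and cobalamin, or committed to transsulfuration, which makes cysteine. Transsulfuration is most active in liver, and many cultured tumour cells take up cystine from the medium instead. Cysteine in turn feeds glutathione, taurine, sulfate and hydrogen sulfide.

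Total counts per library lay between 29679405 and 32774905, so that 3 counts correspond to 0.0873 to 0.110 CPM, counts scaled to a library's size and here also by TMM factors. Knockout replicate 1 stood apart from the other knockout libraries, with 14345 rows above 0 against 17759 to 17948, and WT libraries had 14566 to 15430. KO replicates 2 to 4 thus detected more rows than any WT library, and the part of this in the levels of Cth, Cbs, Cdo1 and other low rows was not tested. Among WT libraries, replicates 1 and 4 were closer to each other than to replicates 2 and 3, and the labels do not say whether a pair shares a culture. Separate cultures are not named in the labels either, so p-values reflect library-to-library spread that could be technical. Tead1 had 51.2, 64.8, 76.3 and 77.8 CPM in KO libraries, against 319, 155, 142 and 209 CPM in WT libraries (log2 fold change -1.61, edgeR adjusted p = 0.00217). Tead4 had 25.8, 23.3, 31.2 and 37.0 CPM in KO libraries, against 52.1, 36.7, 39.4 and 63.2 CPM in WT libraries, and the genotypes overlapped (log2 fold change -0.71, edgeR adjusted p = 0.0261). The call for Tead4 was lost without KO replicate 2 or 3 (adjusted p = 0.0800 and 0.0606) and without WT replicate 1 or 4 (0.0601 and 0.0664). It was lost as well under upper-quartile factors (0.0692), library size alone (0.0800) and with the close WT pairs summed (0.0653). Of the epithelial and colon markers, Epcam was at 0 in all 8 libraries and Cdh1 averaged 0.0752 CPM in KO and 0 in WT, while Krt18 (76.3 and 38.5 CPM), Krt20 (47.4 and 34.6 CPM) and, at a low level, Krt8 (0.896 and 0.328 CPM) were detected. Of these 3 tested markers Krt18 rose (edgeR adjusted p = 0.00107), where 20.9% of all rows tested were higher in KO. Krt8 and Krt20 did not pass (adjusted p = 0.121 and 0.289). All KO values of Krt8 were above WT, and 21.1% of all rows tested showed that separation.

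In the knockout libraries Cth and Cdo1 rose, and Mat2a, Mtr and Mtrr fell. Mat2b and Ahcy did not pass the test, and Cbs was too low to be tested. The changes were far from equal in size: Cth was 20.8-fold higher by mean CPM, whereas the 3 decreases left KO means at 0.713, 0.565 and 0.604 of the WT means. Across all 13265 rows tested, 41.6% were called at an adjusted p under 0.05 with edgeR's quasi-likelihood test and Benjamini-Hochberg adjustment (20.9% higher and 20.6% lower in KO). Against that background 5 of the 7 members tested were called, 2 higher and 3 lower. For 6 of the 7 no KO value fell within the WT range or across it, and 40.7% of all rows tested were separated in this way. Cth passed the filter on low counts only through the KO libraries, since 4 KO and 0 WT libraries exceeded the minimum of 0.330 CPM, so its inclusion already required a difference. Cdo1 had 4 KO and 3 WT libraries over that minimum, where 4 were needed, so its WT libraries alone would not have carried it. The median log2 fold change of the 7 was -0.49, beside 0.02 over all rows. A lower level of a transcript in such bulk samples can mean fewer cells that express it or less RNA per cell, which cannot be told apart.

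**Figure D1:**
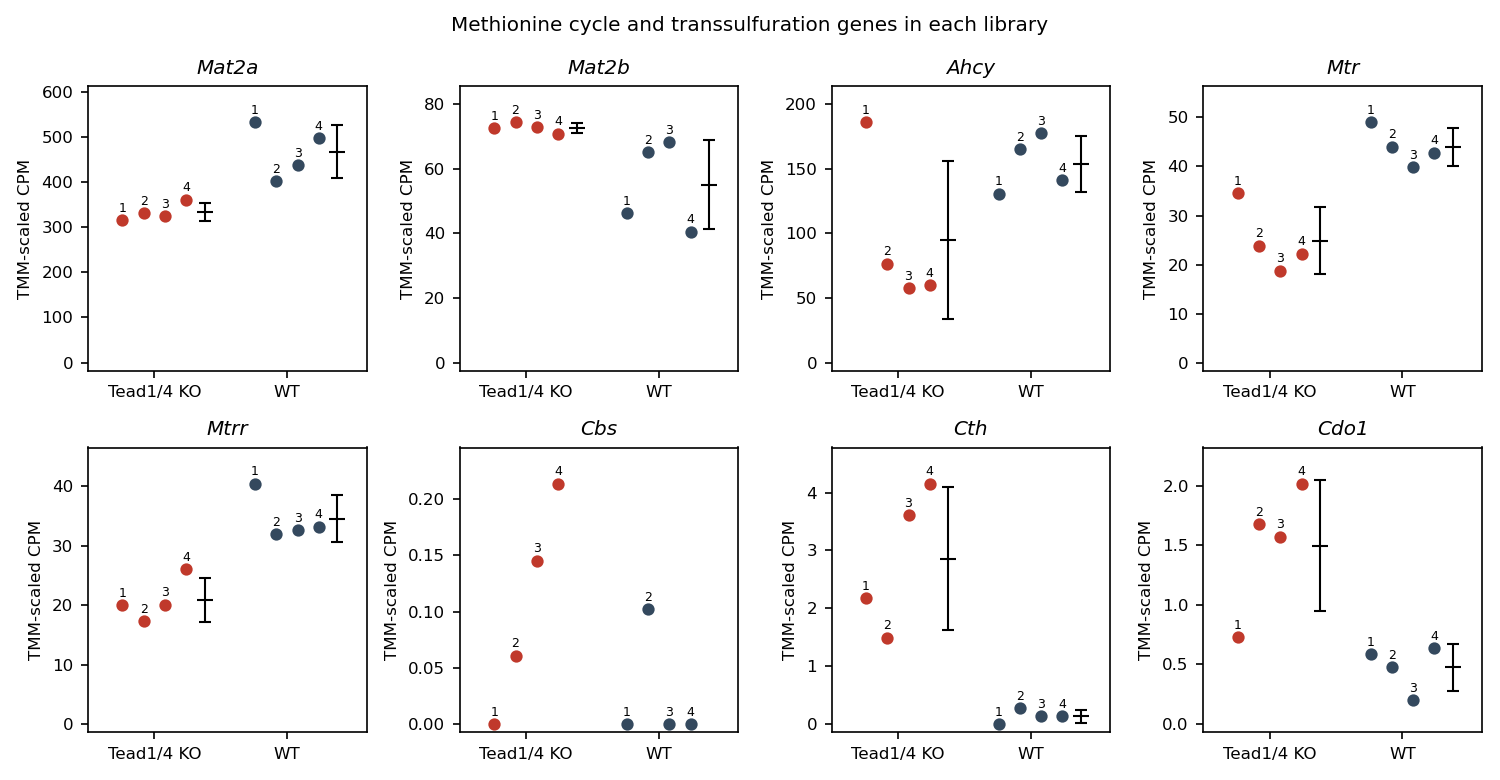
TMM-scaled CPM of the 8 genes in each library, Tead1/4 KO at the left and WT at the right of each panel; points are libraries labelled by replicate number, and the black marks give mean ± SD (n = 4), omitted for Cbs, which was at 0 in 4 of the 8 libraries. All 4 KO libraries lie above WT for Cth, Cdo1 and Mat2b and below WT for Mat2a, Mtr and Mtrr, whereas KO replicate 1 of Ahcy, at 186 CPM, lies above every WT library.

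The stretches of 250 bases before the start of Mat2a, Mtr and Mtrr are printed because these are the 3 members that fell. They are from RefSeq on GRCm38.p6, all on the minus strand (for Mtrr the first of 2 windows is shown). Windows of 6 of the 8 members were searched. For Cth no window was at hand, and Cdo1 was left out of the search by choice. They lie at chr6:72439557-72439806 (Mat2a), chr13:12258114-12258363 (Mtr) and chr13:68582170-68582419 (Mtrr). Capitals mark matches, on either strand, to CATTCC, the core recognised by TEAD proteins, to CCAAT, to the E-box CACGTG, or to TGATGNAA, which ATF4 binds with a partner protein.
Mat2a: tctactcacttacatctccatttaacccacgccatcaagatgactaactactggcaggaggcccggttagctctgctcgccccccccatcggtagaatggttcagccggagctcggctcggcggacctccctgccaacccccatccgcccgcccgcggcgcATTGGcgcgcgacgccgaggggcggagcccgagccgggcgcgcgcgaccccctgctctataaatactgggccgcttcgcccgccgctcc
Mtr: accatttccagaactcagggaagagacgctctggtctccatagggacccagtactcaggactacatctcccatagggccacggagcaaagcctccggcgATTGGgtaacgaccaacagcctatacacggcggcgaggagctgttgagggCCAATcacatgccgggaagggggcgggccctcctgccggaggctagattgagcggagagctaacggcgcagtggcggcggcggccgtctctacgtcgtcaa
Mtrr: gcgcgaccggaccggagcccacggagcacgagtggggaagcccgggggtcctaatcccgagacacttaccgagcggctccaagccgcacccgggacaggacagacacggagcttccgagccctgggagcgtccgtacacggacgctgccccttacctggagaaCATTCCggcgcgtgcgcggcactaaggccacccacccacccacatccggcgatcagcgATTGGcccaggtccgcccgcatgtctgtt
CATTCC occurred in the Mtrr window, at position -87 from the start, and in no window of the other members searched. Of 32851 such windows of all genes 12.6% hold it. CCAAT or its complement occurred in the windows of all 6 members searched, with 2 matches each in Mtr and Cbs, against 33.8% of all windows. The E-box and the ATF4 motif occurred in none of the 3 printed windows, and 6.02% and 3.45% of all windows hold them. These are matches of letters, not measured sites.

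Mat2a and Mat2b encode the catalytic and regulatory subunits of the methionine adenosyltransferase that makes SAM outside the liver. Mat2a (ENSMUSG00000053907; GRCm38 chromosome 6, 72432799 to 72439558, minus strand) had 316, 331, 325 and 361 CPM in KO libraries, against 533, 402, 437 and 498 CPM in WT libraries. Every KO library was below every WT library, and 19.6% of all rows tested showed that separation. The mean was 333 ± 19.8 CPM in KO and 468 ± 59.0 CPM in WT (SD, n = 4 each), with a log2 fold change of -0.49 (SE 0.15, edgeR adjusted p = 0.0233). The call did not hold without KO replicate 2 or 3 or without WT replicate 1 (adjusted p = 0.0644, 0.0770 and 0.0566). Scaling by upper-quartile factors or by library size alone also ended it (adjusted p = 0.0904 and 0.102), and put the log2 median over all rows at 0.20 in place of 0.02. The exons of Mat2a share 508 bases with Particl, an antisense transcript without a row of its own in the table, and the labels do not say whether counting used strand.

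Mat2b (ENSMUSG00000042032; chromosome 11, 40679314 to 40695203, minus strand) had 72.6, 74.5, 72.9 and 70.9 CPM in KO libraries, against 46.4, 65.3, 68.3 and 40.6 CPM in WT libraries. The KO libraries were nearly level and all above WT (21.1% of all rows tested lay wholly above), but WT replicates 2 and 3 were close to them. Mat2b had a log2 fold change of 0.40 (SE 0.18, 95% interval -0.01 to 0.80, edgeR adjusted p = 0.101). With upper-quartile factors it passed (0.57, adjusted p = 0.0464). The ratio of Mat2a to Mat2b counts, a comparison chosen after the values were seen and not affected by scaling, was 4.35, 4.45, 4.46 and 5.10 in KO libraries, against 11.5, 6.16, 6.40 and 12.3 in WT libraries. The KO ratios were thus below all WT ratios, with means of 4.59 ± 0.343 in KO and 9.08 ± 3.25 in WT (SD, n = 4 each), and the WT ratios fell into the same pairs of libraries as noted for the whole profile.

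Ahcy encodes adenosylhomocysteinase, which splits the by-product of methyl transfer into homocysteine and adenosine. Ahcy (ENSMUSG00000027597; chromosome 2, 155059310 to 155074497, minus strand) had 186, 76.5, 57.7 and 60.2 CPM in KO libraries, against 131, 165, 177 and 141 CPM in WT libraries. KO replicate 1 was above every WT library, and the other 3 KO libraries were below every WT library. With all libraries Ahcy did not pass the test (log2 fold change -0.69, SE 0.35, 95% interval -1.48 to 0.10, edgeR adjusted p = 0.140). Without KO replicate 1 it was called as lower, with a log2 fold change of -1.26 (adjusted p = 0.000705).

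The sum of 14 cell division genes was measured beside Ahcy. It was 3170, 1554, 917 and 796 CPM in KO libraries, against 6120, 4717, 4631 and 5429 CPM in WT libraries. KO replicate 1 therefore had the highest sum of the knockout libraries, still below every WT library. The part of cell division in the level of Ahcy was not tested. Of these 14 genes 12 fell and none rose, where 20.6% of all rows tested were lower. The number that fell was 7 without KO replicate 2 and 5 with the close WT pairs summed. Of all rows tested 29.3% and 21.8% were called in those refits, against 41.6% in the fit of all 8 libraries. The named members were Cenpf (log2 fold change -2.37), Mki67 (-2.18) and Mcm2 (-1.62).

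**Figure D2:**
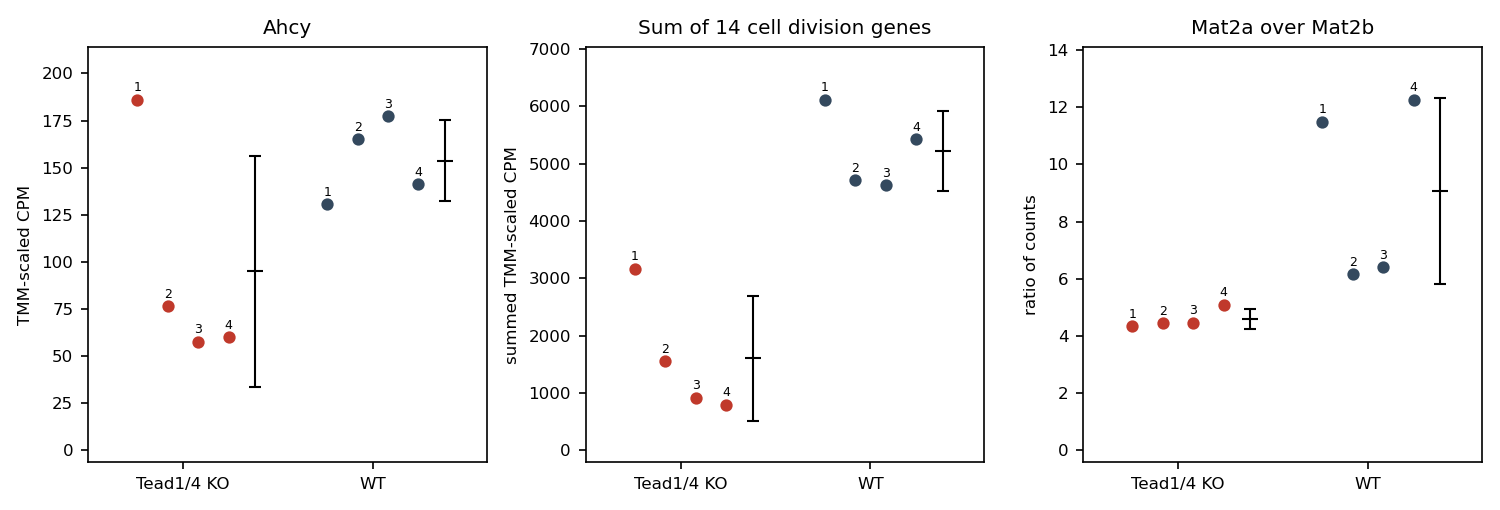
Library-by-library values, Tead1/4 KO left and WT right, points labelled by replicate number with mean ± SD (n = 4) in black: Ahcy CPM, the summed CPM of 14 cell division genes, and the ratio of Mat2a to Mat2b counts. KO replicate 1 is the highest knockout library for Ahcy (186 CPM) and for the summed division genes (3170 CPM), while its Mat2a to Mat2b ratio of 4.35 is close to the other KO ratios of 4.45 to 5.10.

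Mtr encodes methionine synthase, the cobalamin-dependent enzyme that methylates homocysteine, and Mtrr encodes the reductase that reactivates it. Mtr (ENSMUSG00000021311; chromosome 13, 12182712 to 12258113, minus strand) had 34.6, 23.9, 18.8 and 22.2 CPM in KO libraries, against 49.1, 44.1, 39.8 and 42.8 CPM in WT libraries. All KO values were below all WT values, with KO replicate 1 nearest to WT. The log2 fold change of Mtr was -0.82 (SE 0.19, edgeR adjusted p = 0.00886), and it lay between -1.04 and -0.70 with 1 library left out. Mtrr (ENSMUSG00000034617; chromosome 13, 68560780 to 68582149, minus strand) had 19.97, 17.3, 20.1 and 26.1 CPM in KO libraries, against 40.4, 31.9, 32.6 and 33.2 CPM in WT libraries. Its genotypes did not overlap either, and KO replicate 1 was not set apart. The log2 fold change of Mtrr was -0.73 (SE 0.16, edgeR adjusted p = 0.00761), and it was called with each library left out. The transcripts of methionine synthase and its reductase were thus both lower in the knockout. With WT replicates 1 and 4 summed to 1 library and 2 and 3 to another, the call for Mtr ended at an adjusted p of 0.0514, and that for Mtrr held (adjusted p = 0.0371).

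Transsulfuration has a pair of steps, catalysed by cystathionine beta-synthase (Cbs) and cystathionine gamma-lyase (Cth). Cbs (ENSMUSG00000024039; chromosome 17, 31608894 to 31637238, minus strand) had counts of 0, 2, 5 and 7 in KO libraries, against 0, 3, 0 and 0 in WT libraries. It was thus at or near the detection limit in both genotypes, with 14 counts over the KO libraries and 3 over the WT libraries. The ratio per TMM-scaled library size was 4.05, with a 95% exact (Clopper-Pearson) counting interval of 1.13 to 22.0 that covers counting error only. Fitted without the filter on low counts, Cbs had an edgeR adjusted p of 0.367.

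Cth (ENSMUSG00000028179; chromosome 3, 157894248 to 157925077, minus strand) releases cysteine from cystathionine and can also produce hydrogen sulfide. It had counts of 69, 49, 124 and 136 in KO libraries, against 0, 8, 4 and 4 in WT libraries. In CPM these were 2.18, 1.49, 3.61 and 4.16 in KO libraries, against 0, 0.273, 0.135 and 0.142 in WT libraries, where the count of 0 allows up to 0.110 CPM. All KO libraries were above all WT libraries, and KO replicates 3 and 4 were highest. The mean was 2.86 ± 1.23 CPM in KO and 0.137 ± 0.112 CPM in WT (SD, n = 4 each). The knockout difference on the log2 scale was 4.33 (SE 0.69, edgeR adjusted p = 0.00193), between 3.92 and 4.87 with 1 library left out, and Cth was called in every such fit. From the summed counts, 378 in KO and 16 in WT, the ratio per TMM-scaled library size was 20.5 with a 95% exact counting interval of 12.5 to 36.3. Both levels are low, and in any library no more than 136 counts lie behind them.

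The level of Cth relative to other members was taken as a ratio within each library and compared between the genotypes. Since Cbs was at 0 in 4 of the 8 libraries, Cth was set against Mat2a. Cth had 6.91, 4.50, 11.1 and 11.5 counts per 1000 counts of Mat2a in KO libraries, against 0, 0.679, 0.308 and 0.285 in WT libraries. The ratio averaged 8.50 ± 3.38 in KO and 0.318 ± 0.279 in WT (SD, n = 4 each), and all KO ratios exceeded all WT ratios. An exact two-sided permutation test over 70 assignments gave p = 0.0286, the smallest they can give. Every KO library was already above WT for Cth and below WT for Mat2a. This p was therefore fixed by those values and adds no support of its own. Leaving out any WT library gave an exact permutation p of 0.0571 over 35 assignments. The ratios to the other members are given without a test. Per 1000 counts of Mat2b, Cth had 20.02 to 58.6 counts in KO libraries, against 0 to 4.18 in WT libraries. Per 1000 counts of Ahcy the ranges were 11.7 to 69.1 in KO and 0 to 1.65 in WT. Per 1000 counts of Mtr they were 62.5 to 192 in KO and 0 to 6.20 in WT, and per 1000 counts of Mtrr they were 86.4 to 180 in KO and 0 to 8.57 in WT. Against Cdo1, which itself rose, there were 891 to 3000 counts of Cth per 1000 in KO and 0 to 667 in WT. The genotypes did not overlap in any of these ratios, and the same Cth counts enter all of them.

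Cdo1 (ENSMUSG00000033022; chromosome 18, minus strand) encodes cysteine dioxygenase, which commits cysteine to taurine and sulfate. It had counts of 23, 55, 54 and 66 in KO libraries, against 16, 14, 6 and 18 in WT libraries. In CPM these were 0.727, 1.67, 1.57 and 2.02 in KO libraries, against 0.589, 0.478, 0.202 and 0.639 in WT libraries. The genotypes did not overlap, but KO replicate 1 was just above the highest WT library. The WT libraries alone would not have carried Cdo1 through the filter on low counts, with 3 over the minimum and 4 needed. Cdo1 had a log2 fold change of 1.65 (SE 0.48, edgeR adjusted p = 0.0215). The call was lost without KO replicate 2, 3 or 4 (adjusted p = 0.0580, 0.0578 and 0.0678) and without WT replicate 2 or 3 (0.0522 and 0.0518), while the log2 fold change stayed between 1.38 and 1.86. From the summed counts, 198 in KO and 54 in WT, the ratio per TMM-scaled library size was 3.19 with a 95% exact counting interval of 2.35 to 4.39.

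Transsulfuration enzymes are abundant in hepatocytes, so the markers of these and of other cell types were measured beside Cth and Cdo1. Of 10 hepatocyte markers, Serpina1a, Cyp2e1, Bhmt and Tat were at 0 in all 8 libraries. The list summed to 1.47 to 1.77 CPM in KO libraries and to 0.461 to 0.957 CPM in WT libraries, most of it Apoa1 (1.18 CPM in KO, 0.427 CPM in WT), the 1 member tested, which rose. Of 10 leukocyte markers, Adgre1, Cd3e and Tyrobp were at 0 throughout and Ptprc averaged 0.0152 CPM in KO and 0.0253 CPM in WT. Cd68 (11.2 and 2.14 CPM) and Lyz2 (2.39 and 0.254 CPM), the 2 members tested, rose, where 20.9% of all rows tested were higher. Lyz2 had WT counts of 11, 11, 7 and 0, and its WT libraries alone would not have carried it through the filter. That list summed to 9.93 to 16.4 CPM in KO and to 1.55 to 3.75 CPM in WT. Fibroblast markers summed to 1746 to 2341 CPM in KO and to 1409 to 2127 CPM in WT, most of it Col1a2 (1519 CPM in KO, 1418 CPM in WT), which did not pass, and Postn was at 0. Of 6 tested members 4 rose, where 20.9% of all rows tested were higher. Dcn averaged 7.83 CPM in KO and 0.0355 CPM in WT, where 3 libraries were at 0 (edgeR adjusted p = 0.000803), and like Cth it passed the filter only through KO libraries. Pdgfra averaged 35.9 CPM in KO and 8.01 CPM in WT, Col3a1 143 and 31.3 CPM, and Pdgfrb 84.9 and 39.7 CPM. Endothelial markers summed to 1.30 to 11.1 CPM in KO and to 0 to 0.438 CPM in WT, with Kdr and Emcn at 0. Vwf, the 1 member tested, rose, with 5.58 CPM in KO and 0.118 CPM in WT (log2 fold change 5.48, SE 0.97, edgeR adjusted p = 0.00280). Vwf too passed the filter only through KO libraries, so its inclusion already required a difference. The part of any of these lists in the levels of Cth and Cdo1 was not tested.

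The order of the levels was compared per kilobase of exon (RPKM), with all annotated exons of a gene joined, which understates genes with many alternative exons. In KO libraries Mat2a was highest at 74.3 ± 4.42 RPKM, followed by Ahcy at 33.9 ± 21.8 and Mat2b at 14.5 ± 0.296 RPKM (SD, n = 4). Mtrr (4.01 ± 0.718 RPKM) and Mtr (2.91 ± 0.800 RPKM) overlapped each other, as did Cth (1.02 ± 0.442 RPKM) and Cdo1 (0.911 ± 0.333 RPKM). In WT libraries the upper part of the order was the same, with Mat2a at 104 ± 13.2, Ahcy at 54.8 ± 7.64, Mat2b at 11.0 ± 2.74, Mtrr at 6.64 ± 0.765 and Mtr at 5.16 ± 0.451 RPKM. Cdo1 (0.290 ± 0.119 RPKM) then stood above Cth (0.0492 ± 0.0400 RPKM), so that these neighbours differed in WT beyond their ranges. Cbs was lowest in both genotypes, at most 0.0286 RPKM in any KO library and 0.0137 RPKM in any WT library. Cth made up 0.432% to 1.18% of the summed RPKM of the 8 genes in KO libraries and at most 0.0565% in WT libraries.

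**Figure D3:**
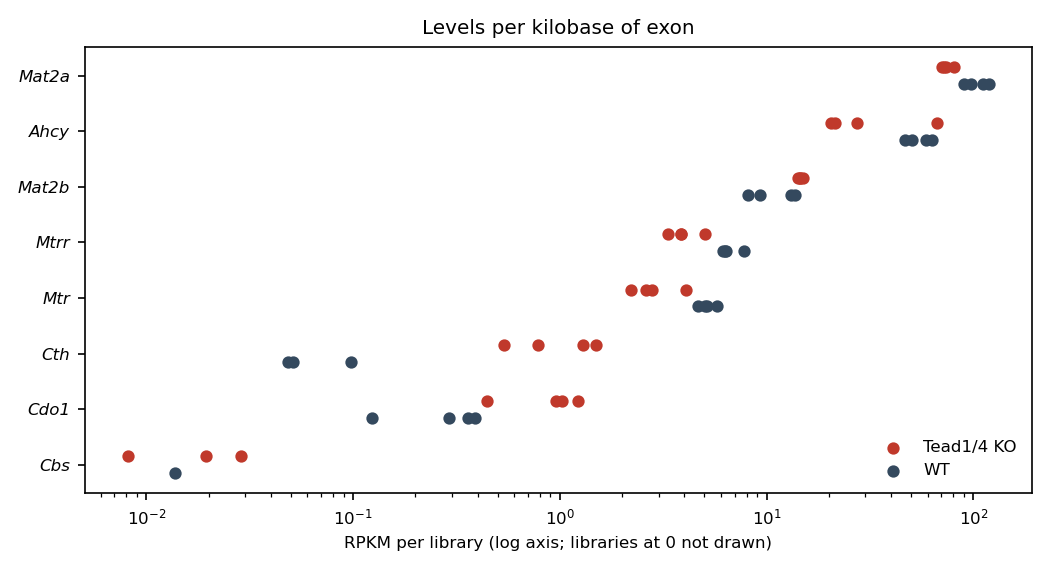
RPKM of the 8 genes per library on a log axis, ordered by the KO mean, Tead1/4 KO points above WT points in each row; the libraries at 0, which are WT replicate 1 for Cth and 4 libraries for Cbs, are not drawn. Cth lies at 0.535 to 1.49 RPKM in KO libraries and at or below 0.0978 RPKM in WT libraries, while Mat2a stays at or above 70.3 RPKM in every library.

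The genes whose pattern over the 8 libraries was most like that of Cth were sought among 8880 annotated genes that averaged 10 CPM or more. Likeness was the root-mean-square difference of log2 CPM (with 1 count added) after centring each gene on its mean. The difference between genotypes enters this measure, so genes with a KO to WT step as large as that of Cth are favoured. WT counts of Cth were 0, 8, 4 and 4, and shared regulation was not tested. The 5 nearest were Ly6a (0.63), the interferon regulatory factor gene Irf7 (0.72), the interferon-inducible GTPase gene Gbp4 (0.73), the tetraspanin gene Cd53 (0.76) and Alox5ap (0.76), which encodes the activating protein of 5-lipoxygenase. Their mean levels in KO libraries were 53.3, 256, 34.7, 34.1 and 20.4 CPM, against 4.94, 22.1, 1.56, 2.02 and 1.30 CPM in WT libraries.

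Other genes of methionine and homocysteine metabolism were read from the same fit, and the count of each list stands against 20.9% of all rows tested higher and 20.6% lower in KO. Of 9 listed, 5 could be tested: 3 fell, 1 rose and 1 did not pass, with a median log2 fold change of -0.81. Ahcyl1, a relative of Ahcy, had 244, 218, 196 and 200 CPM in KO libraries, against 382, 370, 385 and 363 CPM in WT libraries (log2 fold change -0.81, SE 0.13, edgeR adjusted p = 0.00211). Unlike Ahcy itself, Ahcyl1 showed no overlap between genotypes, though KO replicate 1 was again the highest KO library. Adk, the adenosine kinase that clears the other product of Ahcy, had 56.0, 35.2, 33.6 and 30.4 CPM in KO libraries, against 86.1, 73.4, 76.4 and 79.1 CPM in WT libraries (-1.02, SE 0.20, adjusted p = 0.00412). Mettl16, the methyltransferase that controls splicing and stability of the Mat2a transcript, fell by 0.90 (SE 0.23, adjusted p = 0.0118). The increase, named after its value was seen, was Ahcyl2 (0.39, SE 0.13), and no increase was called in this list without any 1 library other than KO replicate 1. The liver-type genes were barely present: Mat1a averaged 0.0298 CPM in KO and 0 in WT, and Bhmt and Bhmt2 were at 0 in all libraries.

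In the methionine salvage pathway, which recycles the methylthio group left by polyamine synthesis, 2 of 5 genes fell and none rose, with a median of -0.49. The share called, 40.0%, was close to the 41.6% of all rows. Mtap, its first enzyme, had 160, 134, 149 and 154 CPM in KO libraries, against 261, 236, 233 and 359 CPM in WT libraries (log2 fold change -0.87, SE 0.17, edgeR adjusted p = 0.00422). Enoph1 fell by 1.03 (SE 0.26, adjusted p = 0.0113), a call that was lost with the close WT pairs summed (-1.06, adjusted p = 0.0531). That left 1 gene of the list lower, where 21.8% of all rows tested were called in either direction. Mri1 had -0.49 (adjusted p = 0.0695) and passed without KO replicate 1 (adjusted p = 0.0289). Without that library 4 of the 5 genes fell, where 49.4% of all rows tested were called in either direction.

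Of 9 genes for cobalamin uptake and handling, which supply the cofactor of methionine synthase, 8 were tested, 1 rose and 1 fell, with a median of -0.01. Lmbrd1, which exports cobalamin from lysosomes, had 47.8, 74.6, 71.4 and 72.1 CPM in KO libraries, against 29.0, 27.3, 31.6 and 24.9 CPM in WT libraries (log2 fold change 1.24, SE 0.17, edgeR adjusted p = 0.00111). Mmachc, the chaperone that processes cobalamin in the cytosol, had 9.51, 8.71, 10.1 and 9.78 CPM in KO libraries, against 20.5, 16.7, 13.0 and 22.4 CPM in WT libraries (-0.93, SE 0.20, adjusted p = 0.00566). Lmbrd1 and Mmachc thus moved in opposite directions. Of the 8 genes tested 6 did not pass, and the share called, 25.0%, was below the 41.6% of all rows tested. Mmut, the mitochondrial cobalamin enzyme, had 0.33 (adjusted p = 0.154). Without KO replicate 1, 2 genes of this list fell, where 49.4% of all rows tested were called in either direction.

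Downstream of cysteine, 1 of 10 genes of taurine, sulfate and sulfide metabolism rose and 2 fell, with a median of -0.13. Suox, the sulfite oxidase, had 62.6, 47.0, 49.8 and 49.5 CPM in KO libraries, against 191, 102, 106 and 223 CPM in WT libraries (log2 fold change -1.57, SE 0.27, edgeR adjusted p = 0.00231). Csad, the decarboxylase next to Cdo1 on the way to taurine, had 25.0, 37.9, 37.5 and 36.4 CPM in KO libraries, against 10.5, 19.5, 26.1 and 9.83 CPM in WT libraries (1.05, SE 0.31, adjusted p = 0.0236). The genotypes of Csad overlapped, since KO replicate 1 was below WT replicate 3. Got2, a mitochondrial aspartate aminotransferase, fell by 0.76 (SE 0.24, adjusted p = 0.0274). The calls for Csad and Got2 each ended without KO replicate 2, 3 or 4 or WT replicate 1 or 4 (adjusted p of 0.0532 to 0.0622 for Csad and 0.0544 to 0.0808 for Got2). With the close WT pairs summed both calls also ended (adjusted p = 0.0668 and 0.105). Without KO replicate 1, 4 genes of this list fell, where 49.4% of all rows tested were called, against 41.6% with all libraries.

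Cystine uptake and glutathione synthesis, the route beside transsulfuration, held 2 decreases and no increase among 7 genes, with a median of -0.19. Gclm, the modifier subunit of the rate-limiting glutamate-cysteine ligase, had 147, 80.2, 74.6 and 78.0 CPM in KO libraries, against 451, 260, 307 and 354 CPM in WT libraries (log2 fold change -1.85, SE 0.27, edgeR adjusted p = 0.00124). Its catalytic partner Gclc fell by 0.78 (SE 0.17, adjusted p = 0.00707). Slc3a2, a chain of the cystine transporter, had -0.38 (adjusted p = 0.0930) and passed without KO replicate 1 (adjusted p = 0.00854). Among 5 tested transporters that carry methionine 1 fell: Slc7a5, with 309, 121, 205 and 233 CPM in KO libraries, against 643, 613, 540 and 754 CPM in WT libraries (-1.55, SE 0.26, adjusted p = 0.00241). Slc38a1 (0.85, adjusted p = 0.0726) and Slc1a5 (-0.46, adjusted p = 0.158) did not pass. All KO values of Slc38a1 were above WT, and it was called under upper-quartile factors (1.03, adjusted p = 0.0374), library size alone (1.04, 0.0397) and DESeq2 (0.86, 0.0365). The median of these transporters was -0.18.

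The serine and folate enzymes, which supply the methyl group for Mtr, showed 9 decreases and no increase among 11 genes, with a median log2 fold change of -1.20, where 20.6% of all rows tested were lower. With the close WT pairs summed 5 of them fell, where 21.8% of all rows tested were called, against 41.6% before. Mthfd1l had 115, 66.6, 68.4 and 73.3 CPM in KO libraries, against 220, 213, 203 and 232 CPM in WT libraries (-1.43, SE 0.19, edgeR adjusted p = 0.000940). Mthfd1 fell by 1.21 (SE 0.21) and Shmt1 by 1.31 (SE 0.23). KO replicate 1 was the highest knockout library for Mthfd1l, as for Mtr.

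Cth is a known target of ATF4, the transcription factor of the amino acid response, so other targets of ATF4 were read beside it. Of 20 genes in that list 6 fell and 1 rose, with a median of -0.21. The share called, 35.0%, was below the 41.6% of all rows tested. Slc7a5, Psat1 (log2 fold change -1.26, SE 0.26) and Shmt2 (-1.52, SE 0.32) were among those that fell, with edgeR adjusted p of 0.00241, 0.00537 and 0.00598. Slc7a5 is also in the list of methionine transporters, and Psat1 and Shmt2 are also in the serine and folate list. Their decreases are thus counted in more than one list. The increase, named after its value was seen, was Ddit3 (1.00, SE 0.35, adjusted p = 0.0439), which was lost without KO replicate 3 or 4 and without WT replicate 1, 3 or 4. Atf4 itself averaged 542 ± 112 CPM in KO and 770 ± 189 CPM in WT (SD, n = 4 each; adjusted p = 0.104).

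Methyltransferases use the product of Mat2a and return the substrate of Ahcy. Of 13 tested, 5 fell and 1 rose, with a median of -0.31, and the share called was 46.2% beside 41.6% of all rows. With the close WT pairs summed 3 fell, where 21.8% of all rows tested were called. Under upper-quartile factors or library size alone 3 rose, where 64.6% and 63.5% of all calls were higher in KO. Mettl14, the partner of the RNA adenosine methyltransferase Mettl3, had 35.1, 31.0, 27.5 and 24.9 CPM in KO libraries, against 73.0, 72.7, 64.7 and 65.1 CPM in WT libraries (log2 fold change -1.22, SE 0.15, edgeR adjusted p = 0.000671). The arginine methyltransferase genes Prmt5 (-1.72, SE 0.34) and Carm1 (-1.16, SE 0.25) fell with adjusted p of 0.00427 and 0.00591. The increase, named after its value was seen, was Nnmt, which methylates nicotinamide: it had 22.0, 17.9, 20.6 and 21.2 CPM in KO libraries, against 2.83, 13.2, 7.95 and 5.82 CPM in WT libraries (1.45, SE 0.38, adjusted p = 0.0135). For Nnmt the WT values spread widely and the KO values were close together.

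**Figure D4:**
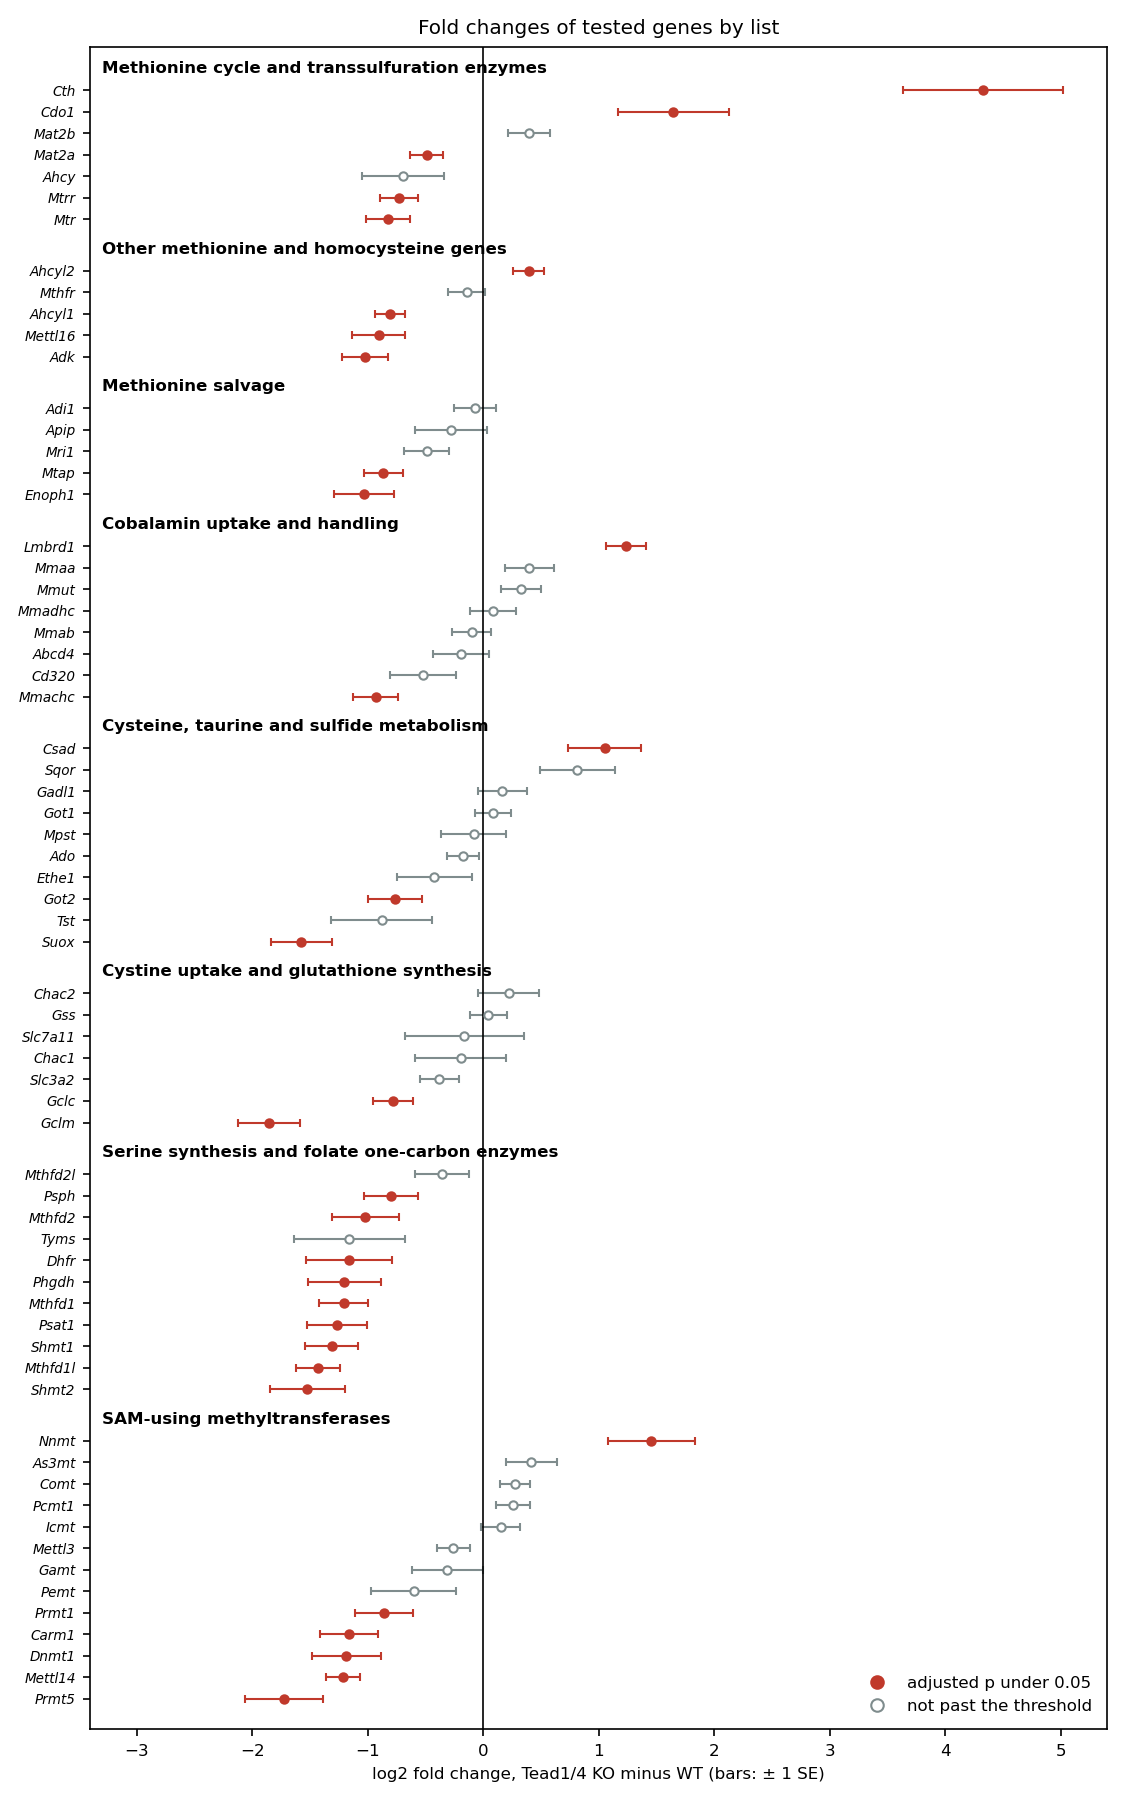
Log2 fold change, Tead1/4 KO minus WT, with bars of ± 1 SE from edgeR for every tested gene of the 8 members' list and of 7 neighbouring lists; filled red points passed an adjusted p under 0.05 and open grey points did not. Cth (4.33) stands to the right of all other genes drawn, while 9 of 11 serine and folate genes are filled and left of 0.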

How the data were processed

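The values are counts of reads per gene, not normalized, as the authors deposited them in 2 equal tables, and 1 was used. RNA was extracted with TRIzol and made into mRNA libraries with a Yeasen kit, per the labels' protocols. The submitters' processing notes list HISAT2, StringTie and GRCm38, with no role or order. The counting program and its strand setting were not given in the sources used here. In every library 101 to 225 rows held 1 count and 288 to 981 held 2, so mates may be counted separately, and intervals and floors cover counting error at best.

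Genotypes were taken from the titles. Rows were filtered with filterByExpr (minimum count 10, minimum total 15), scaled with TMM and tested by glmQLFit and glmQLFTest of edgeR 4.0.16 under R 4.3.3, two-sided, KO minus WT, over all 13265 rows kept, with no covariates. The standard error is the size of the log2 fold change divided by the square root of F. The test was checked on simulated counts. CPM and RPKM were computed here, the latter with exon lengths from GENCODE M21 on GRCm38 (22022 of 22036 annotated identifiers found). The older symbol Mut was read as Mmut, and a second row of Ddit3, at 0 in every library, was left out.

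The members and all gene lists were chosen with earlier results of these data known. All 8 members are described. From each pathway list the 3 tested genes with the smallest p are named. Single increases named beside them, and the marker genes named from the cell type lists, were picked after their values were seen. The planned log2 ratio of Cth to a second member could not be formed with a Cth count of 0, so the untransformed ratio was tested. Same-numbered libraries of the genotypes did not deviate together (correlations of -0.0399 to 0.00502), so the replicate numbers were not taken to pair them. The alternatives were other scalings (DESeq2 size factors, upper-quartile factors, library size only), other filters, DESeq2 1.42.0, limma-voom (limma 3.58.1), the replicate number as a block, WT replicates 1 and 4 and 2 and 3 summed, and each library left out in turn.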

Additional observations from a re-analysis of the deposited data

Results flagged for a closer look

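In a group of 4 libraries a value was marked when its gap to the nearest other library took up most of the group's range (Dixon's 95% limit), which chance does in about 5% of groups. Of the 16 groups looked at (8 genes in 2 genotypes), 3 held such a value. Ahcy in KO replicate 1 was at 186 CPM, with the nearest KO library at 76.5 CPM and a gap of 0.854 of the range. Mtrr in WT replicate 1 was at 40.4 CPM, with the nearest WT library at 33.2 CPM and a gap of 0.847 of the range. Cbs in WT replicate 2 was at 0.102 CPM, which is 3 counts, with the other WT libraries at 0.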

How the results depend on the processing

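Over the refits of the 7 tested members, no log2 fold change reversed, 100 kept their side of the threshold, 15 lost it and 2 gained it. Cth and Cdo1 could not be tested under a minimum of 5 CPM in 4 libraries, which left 0 members called as higher. Mat2a lost its call with upper-quartile factors (-0.30), library size only (-0.30), the replicate block (-0.48) and summed WT pairs (-0.52), and Mat2b gained one with upper-quartile factors (0.57). Cdo1 lost its call under the replicate block (1.65) and summed WT pairs (1.61), and Mtr under summed WT pairs (-0.85). With the replicate block or with summed WT pairs 1 member was called as higher, and with summed WT pairs 1 as lower. Summing the WT pairs, which leaves 2 WT libraries, gave 3134 rows called (1652 higher, 1482 lower) against 5513, and 2 genes of the neighbouring lists higher and 23 lower against 5 and 38. Of the serine and folate genes 5 then fell, and of the cell division genes 5. Either of the scalings that ended the call for Mat2a gave 9 list genes as higher. The calls for higher rows made up 64.6% and 63.5% of all calls under these scalings, against 50.4% with TMM. The Cth to Mat2a ratio differed by 8.18 counts per 1000 under the replicate block (exact sign-flip p = 0.125, the smallest that 16 flips can give) and by 8.19 with summed WT pairs (exact permutation p = 0.133). When single libraries were omitted, log2 fold changes lay between 3.92 and 4.87 for Cth, -0.56 and -0.43 for Mat2a, 0.25 and 0.50 for Mat2b, -1.26 and -0.51 for Ahcy, -1.04 and -0.70 for Mtr, -0.84 and -0.64 for Mtrr and 1.38 and 1.86 for Cdo1. In the same fits 1 to 2 members were higher and 2 to 4 lower, 2 to 7 list genes were higher and 29 to 49 lower, 3809 to 6829 rows were called (2041 to 3420 higher, 1768 to 3409 lower), and the Cth to Mat2a difference was 7.19 to 9.52. The causes were not tested. The replicate block changed no other call among the members. Levels of Cbs, Cth and Cdo1 rest on few counts, which limits their precision.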

Other observations

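The ratio of Mtr to Mtrr counts, chosen after the values were seen, was 1.73, 1.38, 0.935 and 0.850 in KO libraries, against 1.21, 1.38, 1.22 and 1.29 in WT libraries. The means were 1.22 ± 0.411 in KO and 1.28 ± 0.0785 in WT (SD, n = 4 each). This ratio of transcripts spread more widely among KO libraries, with KO replicates 1 and 4 at the ends.

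Within the summed RPKM of the 8 genes, Mat2a held 43.9%, 59.7%, 62.5% and 63.7% in KO libraries, against 63.0%, 51.7%, 52.6% and 61.2% in WT libraries. Ahcy held 41.4%, 22.0%, 17.7% and 16.9% in KO libraries, against 24.7%, 34.0%, 34.1% and 27.8% in WT libraries. KO replicate 1 was therefore the library with the smallest share of Mat2a and the largest share of Ahcy of all 8.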
